A study of Mus musculus with 6 samples.

Results

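Imprinted genes were examined in differentiated primary brown adipocytes of WT and Ucp1-KO mice. The set comprised 39 named genes whose imprinting in the mouse is established. Of these, 38 had a RefSeq transcript in the deposited values, among the 22466 gene symbols with one, and each was represented by its RefSeq transcript of highest mean abundance. Abundance is given in RPKM, a read number scaled to the length of the transcript and the size of the library. Of the 38 genes, 12 averaged under 0.5 RPKM, which left 26 genes to be compared among 12259 genes in all. The exception, without a RefSeq transcript in the deposited values, was Mirg. After adjustment for multiple testing, 0 of the 26 genes were called different between the genotypes. The same held for all 12259 genes, the targeted gene Ucp1 included, so that this result does not show unchanged abundance.

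Abundance had been measured by RNA sequencing in 3 WT cultures (numbered 10, 11 and 12) and 3 Ucp1-KO cultures (13, 14 and 15). All came from strain 129SvEvS1. Precursor cells had been isolated from the interscapular brown adipose tissue of male mice aged 5 to 6 weeks and differentiated in the dish, so that the only stated difference between the groups was the UCP1(-/-) genotype. The labels call the samples independent cultures but do not give the animals behind each of them, and p-values therefore measure the spread between cultures. Both genotypes are of 1 inbred strain and the values are totals over both alleles, so that maternal and paternal expression cannot be told apart.

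Imprinted genes are expressed from only 1 parental allele, because methylation placed in the egg or sperm silences the other copy or a regulator of it. They lie in clusters that share an imprinting control region, and many act on growth, on the precursors of fat and muscle cells or on hormone signalling. For some of them imprinting is limited to placenta, brain or single transcripts of a gene, so that a gene of a cluster can be expressed from both alleles in another tissue. The 39 genes belong to 15 clusters, 7 of which are represented by 1 gene, and 20 of the genes lie on chromosome 7.

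The abundance of Ucp1, the targeted gene, was 1775, 981 and 1157 RPKM in WT and 307, 409 and 398 RPKM in Ucp1-KO cultures. All Ucp1-KO cultures were below all WT cultures, and the study describes a remnant transcript of the disrupted locus in this line. The log2 fold change of Ucp1 was -1.78 ± 0.24 (SE; unadjusted p = 0.000157, adjusted p = 0.868 by limma). Read totals recovered from the RPKM values lay between 14989604 and 17727653 per culture, at which 3 reads on a transcript of 2000 bases correspond to 0.0846 to 0.1 RPKM. The 12 brown adipocyte markers examined all passed the minimum abundance. Most of their sum was Fabp4, with 26399 to 27696 RPKM in WT and 26423 to 29312 RPKM in Ucp1-KO, and apart from Ucp1 the other markers differed up to 2.25-fold between cultures. Markers of other cells differed more between single cultures. The 12 stromal and preadipocyte markers, of which Dpp4 and Pi16 were under the minimum, summed to 982, 2157 and 1363 RPKM in WT and 1317, 1177 and 837 RPKM in Ucp1-KO, and 10 of 10 tested markers of this list had a lower mean log2 value in Ucp1-KO, 2 of them (Lum and Fn1) with an unadjusted p under 0.05. Over all genes, 49.4% had a higher value in Ucp1-KO and 3.3% a lower one with an unadjusted p under 0.05. The 5 macrophage markers with a RefSeq transcript in the deposited values reached 776 RPKM in Ucp1-KO culture 14 and 41.7 to 168 RPKM in the others. In bulk RNA, fewer cells of a type and less RNA per cell cannot be told apart.

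The Gnas locus was the most abundant by far. It encodes Gsα, the G protein subunit that couples β-adrenergic receptors to adenylyl cyclase, and has further imprinted starts: a maternal start for Nesp55, and paternal starts for XLαs and for the non-coding exon 1A transcript. Gsα itself is expressed mainly from the maternal allele in a few tissues and from both alleles elsewhere. The 4 transcripts share 11 exons on chromosome 2 (GRCm38, plus strand) and differ in their first exons. Beyond these, the Nesp55, XLαs and Gsα transcripts have equal lengths, and only the exon 1A transcript differs in the end of the last exon. The sequences before 3 of these starts are shown from RefSeq (GRCm38.p6) because the first exons behind them were read to different extents, with each CpG, the dinucleotide that carries imprinted methylation, in capitals. For XLαs, no sequence was used here. Each window holds the 250 bases before 1 RefSeq start. RefSeq and GENCODE agree on the start of Nesp55. They differ on the others, so that the exon 1A window reaches into the first exon of GENCODE, which begins at chr2:174327699, and the Gsα window ends before its first exon. The Nesp55 window is chr2:174284070-174284319, the exon 1A window is chr2:174327518-174327767 and the Gsα window is chr2:174329756-174330005.
Nesp55: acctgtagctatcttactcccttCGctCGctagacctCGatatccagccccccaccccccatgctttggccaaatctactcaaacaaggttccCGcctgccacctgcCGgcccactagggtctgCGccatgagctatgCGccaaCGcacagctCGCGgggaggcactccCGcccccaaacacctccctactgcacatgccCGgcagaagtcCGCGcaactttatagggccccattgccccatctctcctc
Exon 1A: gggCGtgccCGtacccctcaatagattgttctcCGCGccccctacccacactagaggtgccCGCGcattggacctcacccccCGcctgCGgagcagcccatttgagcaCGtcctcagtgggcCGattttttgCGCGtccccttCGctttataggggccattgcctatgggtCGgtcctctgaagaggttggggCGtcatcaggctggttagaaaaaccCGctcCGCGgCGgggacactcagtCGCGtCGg
Gsα: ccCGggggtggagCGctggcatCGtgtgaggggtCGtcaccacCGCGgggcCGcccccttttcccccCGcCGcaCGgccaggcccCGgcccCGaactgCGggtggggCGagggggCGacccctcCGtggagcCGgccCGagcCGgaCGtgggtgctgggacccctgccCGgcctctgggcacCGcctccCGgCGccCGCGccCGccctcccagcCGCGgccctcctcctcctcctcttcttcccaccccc
These windows hold 14 CpG for Nesp55, 22 for exon 1A and 29 for Gsα.

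By the rule of highest RPKM, Gnas was represented by the exon 1A transcript with 883, 744 and 751 RPKM in WT and 787, 949 and 1019 RPKM in Ucp1-KO. This transcript ranked first only because it is the shortest, as its reads, so far as they could be assigned, lay in the shared exons. The exon 1A transcript held 21908, 18051 and 19361 reads in WT and 18478, 23776 and 22216 reads in Ucp1-KO. The Nesp55 transcript, with 2 first exons of 1063 bases at chr2:174284320-174285477, held only 2, 0 and 1 more reads in WT and 1, 0 and 0 more in Ucp1-KO. The XLαs transcript, with a first exon of 2359 bases at chr2:174297859-174300217, held 0, 0 and 1 more reads in WT and 0, 0 and 2 more in Ucp1-KO. A further transcript with the XLαs first exon and none of the shared exons had the same 0 to 2 reads in each culture. Apart from these reads, the XLαs transcript held as many as the exon 1A transcript in every culture. The exon 1A first exons thus added no reads that could be told apart. Another transcript with the Nesp55 first exons had 561 to 826 reads, but it also contains exons shared with Gsα and an end of its own.

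By contrast, the Gsα transcript held 932, 548 and 642 reads more than the exon 1A transcript in WT and 700, 751 and 820 more in Ucp1-KO. Its first exon has 346 bases at chr2:174330089-174330434. Reads of the locus thus lay in the shared exons and the Gsα first exon in both genotypes, and those of the Nesp55 and XLαs first exons were at or under the floor of 3 reads in every culture. The floor covers counting error only, since the reads carry no molecular identifiers. Gsα amounted to 765, 638 and 646 RPKM in WT and 679, 814 and 879 RPKM in Ucp1-KO, with overlapping genotypes. The log2 fold change of the Gnas transcript of highest abundance was 0.21 ± 0.14 (SE; limma, adjusted p = 0.876). Libraries of this kit do not mark the strand, and 79.9% of the exon bases of this transcript are also exonic in Gm20721 on the opposite strand.

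**Figure D1:**
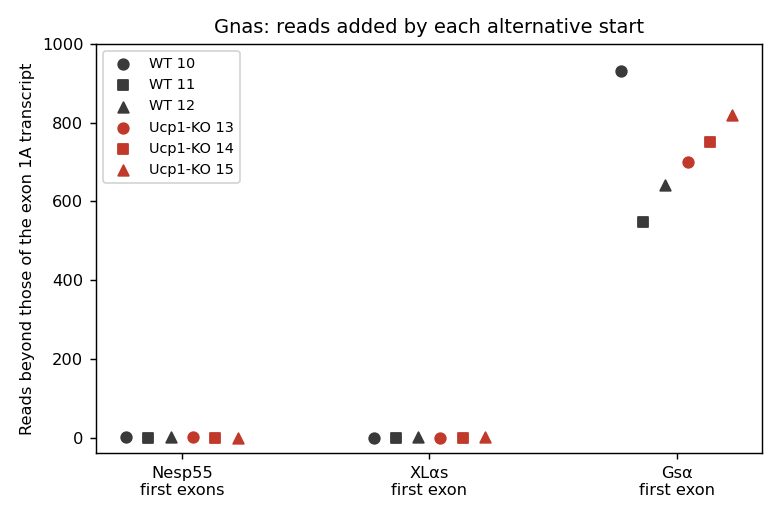
Reads (vertical axis, whole reads recovered from RPKM) that the Nesp55, XLαs and Gsα transcripts of Gnas held beyond those of the exon 1A transcript, in 3 WT cultures (black) and 3 Ucp1-KO cultures (red). Nesp55 and XLαs added 0 to 2 reads in each culture, and Gsα added 548 to 932.

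The other tested genes followed at a distance. RPKM is a value per transcript length, so that levels can be ordered across genes. Cd81, a membrane tetraspanin of the Kcnq1 cluster, followed Gnas with 105, 131 and 112 RPKM in WT and 97.9, 114 and 103 RPKM in Ucp1-KO. Nap1l4, a histone chaperone of the same cluster, came next with 59.0, 58.4 and 53.7 RPKM in WT and 66.6, 62.2 and 58.4 RPKM in Ucp1-KO. Gnas, Cd81 and Nap1l4 were each above the gene below them in all cultures. Thereafter only Cdkn1c was separate from the next gene in this way, and all other neighbours in the order overlapped.

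The fourth in abundance was Commd1, a protein of copper metabolism, with 39.5, 47.2 and 44.5 RPKM in WT and 42.8, 46.8 and 44.8 RPKM in Ucp1-KO. Grb10, an adaptor protein that inhibits insulin receptor signalling, was the fifth. It had 31.4, 46.7 and 41.1 RPKM in WT and 20.6, 34.6 and 46.1 RPKM in Ucp1-KO. Genotypes overlapped in both genes, and the lowest Grb10 value belonged to Ucp1-KO culture 13. The log2 fold changes were 0.04 ± 0.10 for Commd1 and -0.28 ± 0.29 for Grb10 (SE; limma, adjusted p = 0.965 and 0.904).

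**Figure D2:**
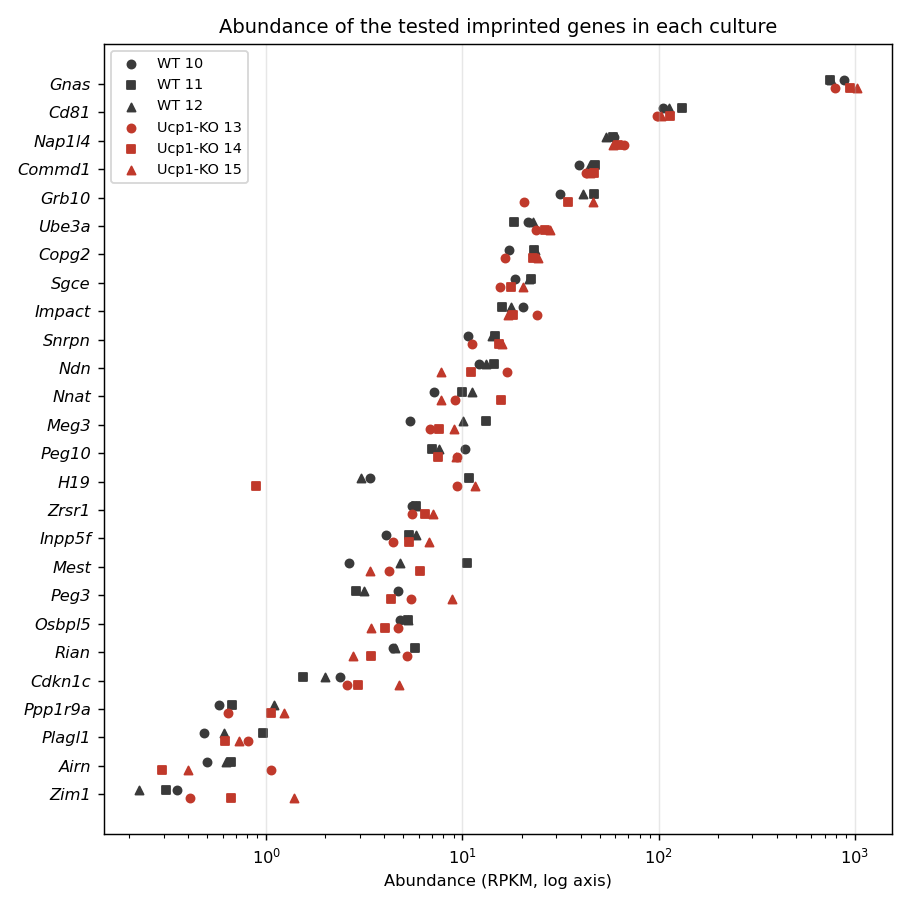
Abundance (horizontal log axis, RPKM) of the 26 tested imprinted genes in each of 3 WT (black) and 3 Ucp1-KO (red) cultures, ordered by mean. Gnas is at 744 to 1019 RPKM, whereas Zim1 at the lower end is at 0.226 to 1.39 RPKM, and H19 shows the widest scatter within a genotype.

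To address whether loss of UCP1 was accompanied by a change of imprinted genes, limma was fitted to all 16865 RefSeq transcripts that averaged 0.5 RPKM or more. Fold changes are on the scale of log2(RPKM + 1), which understates changes of low genes. None of the 26 genes had an adjusted p under 0.05, as did 0.0% of all genes, and the smallest adjusted p of the 26 and of all genes was 0.868. Since Ucp1 itself was not called, the absence of calls cannot tell unchanged from changed genes. An unadjusted p under 0.05 was found for 3 of 26 (11.5%) against 5.64% of all genes. All 3 were higher in Ucp1-KO, as were 2.35% of all genes, and 0 were lower, as were 3.3% of all genes. Genotypes did not overlap for 4 of 26 (15.4%) against 10.8% of all genes, with 3 above WT (5.74% of all genes) and 1 below (5.09%). One of the 3, Zim1, reached the minimum abundance through its Ucp1-KO values alone. Among genes at 0.5 RPKM or more in each genotype, 3 of 25 did not overlap, against 10.6% of all such genes. By limma-voom on the recovered reads, 0 of 26 had an adjusted p under 0.05 and 5 an unadjusted one (4 of 25 without Zim1), as did 5.41% of all genes. The count was 2 of 37 (5.41%) with no minimum abundance, against 5.75% of all genes, and 2 of 26 (7.69%) with median-of-ratios scaling, against 6.01%. In both, Peg3 no longer had an unadjusted p under 0.05 (unadjusted p = 0.0574 and 0.0531, adjusted p = 0.87 and 0.82 by limma).

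Of the 26 genes, 16 had a positive and 10 a negative log2 fold change, with a median of 0.08 against -0.0026 over all genes, of which 49.4% were positive. Apart from Gnas, which has starts of either allele, genes known for expression from the maternal allele (13 tested) had a median of 0.04, with 7 positive and 6 negative values. Those known for the paternal allele (12 tested) had a median of 0.09, with 8 positive and 4 negative values. Both kinds of genes thus included positive and negative values, and genes of 1 cluster also lay on both sides of 0, as in the Kcnq1 cluster.

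**Figure D3:**
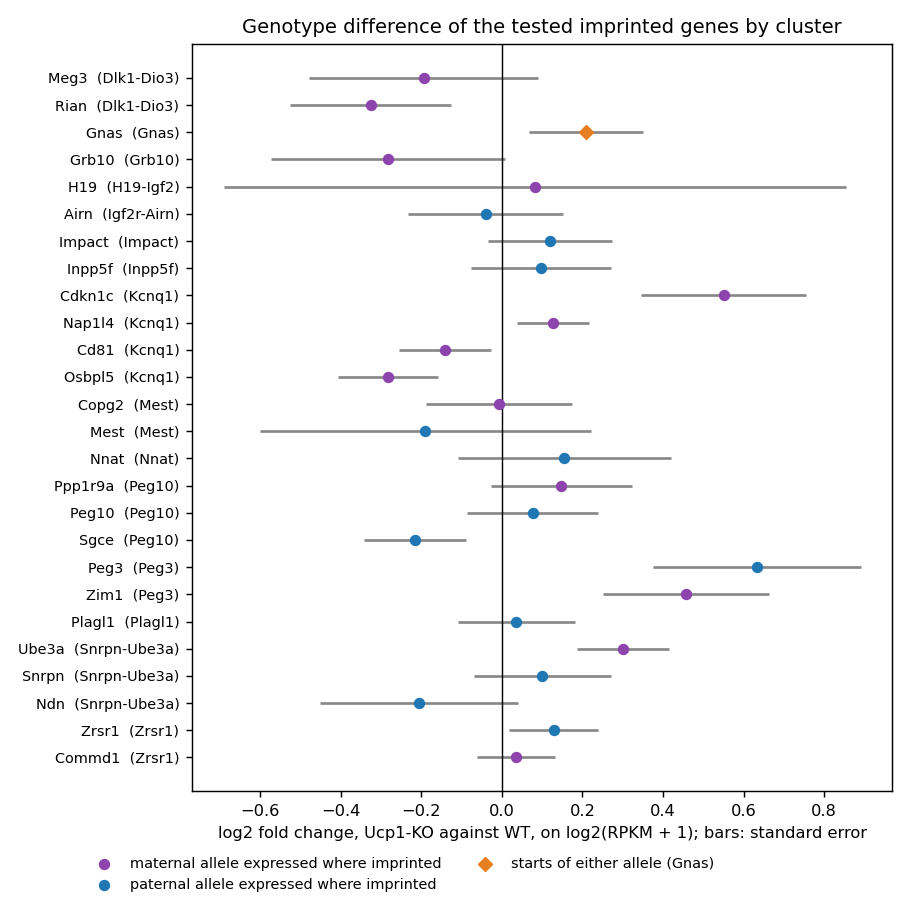
Log2 fold change of Ucp1-KO against WT (horizontal axis, log2(RPKM + 1) scale; bars, SE of the limma fit, n = 3 cultures per genotype) for the 26 tested imprinted genes grouped by cluster and coloured by the allele known to be expressed where the gene is imprinted, with Gnas as a diamond of its own. Values range from -0.33 for Rian to 0.63 for Peg3, with maternal and paternal genes on both sides of 0.

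Peg3 had the highest fold change on the log2(RPKM + 1) scale, although the ratio of mean RPKM was higher for Zim1 (2.78) than for Peg3 (1.74). Peg3 is a zinc finger protein expressed from the paternal allele, located on chromosome 7 at 6703892 to 6730431 (minus strand). It had 4.71, 2.86 and 3.14 RPKM in WT and 5.48, 4.32 and 8.89 RPKM in Ucp1-KO. Culture 15 was high and WT culture 10 lay above Ucp1-KO culture 14, so that the genotypes overlapped. This amounted to a log2 fold change of 0.63 ± 0.26 (SE; unadjusted p = 0.0441, adjusted p = 0.868 by limma) and 0.38 without culture 15.

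Zim1, a zinc finger gene expressed from the maternal allele, is the downstream neighbour of Peg3 at 6671269 to 6696450 on the same strand. It was the least abundant tested gene, with 0.351, 0.308 and 0.226 RPKM in WT and 0.407, 0.663 and 1.39 RPKM in Ucp1-KO, from 14 to 73 reads per culture. All Ucp1-KO cultures were above all WT cultures, and culture 15 was again the highest. Zim1 passed the minimum only through Ucp1-KO, as its mean was 0.295 RPKM in WT but 0.820 RPKM in Ucp1-KO, and its difference is therefore a description without a test. On the log2 scale the fold change was 0.46 ± 0.21 (SE), or 1.28 by limma-voom on reads and 1.09 with 0.1 RPKM added in place of 1, and 0.24 without culture 15.

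Peg3 and Zim1 are shown with the bases before their RefSeq starts (GRCm38.p6, minus strand), chr7:6730420-6730669 for Peg3 and chr7:6696433-6696682 for Zim1, because these neighbours are oppositely imprinted and both were read in all cultures. Other annotated starts lie farther upstream, so that part of each window is within the annotated gene. Capitals mark CpG.
Peg3: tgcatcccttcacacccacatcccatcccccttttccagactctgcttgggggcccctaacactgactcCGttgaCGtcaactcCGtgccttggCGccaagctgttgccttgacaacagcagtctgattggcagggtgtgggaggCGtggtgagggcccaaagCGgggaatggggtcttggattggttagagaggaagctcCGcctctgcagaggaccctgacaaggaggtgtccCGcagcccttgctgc
Zim1: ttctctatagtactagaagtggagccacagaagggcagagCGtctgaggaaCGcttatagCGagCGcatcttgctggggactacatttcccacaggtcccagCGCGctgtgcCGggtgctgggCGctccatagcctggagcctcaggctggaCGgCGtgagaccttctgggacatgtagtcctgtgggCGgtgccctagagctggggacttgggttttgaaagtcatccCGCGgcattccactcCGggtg
These windows hold 8 and 14 CpG. Over the 6 cultures the abundance of the neighbours gave r = 0.86 and rho = 0.77, without a test because of the way Zim1 passed the minimum. Without the 2 cultures farthest from the median of Peg3, r was 0.44, and with each genotype centred on its mean it was 0.73. Without Ucp1-KO culture 15 alone r was 0.50, and without any other single culture it was 0.83 to 0.92. The relation therefore rests on that culture. None of the other 7 pairs of neighbours compared had an adjusted p under the threshold. The third gene of the cluster, Usp29, had 0 to 4 reads per culture.

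The Kcnq1 cluster on chromosome 7 held 9 of the genes, 4 of which were tested. Cdkn1c encodes the cell cycle inhibitor p57 and lies at 143458339 to 143461050 (minus strand). It had 2.37, 1.54 and 1.99 RPKM in WT and 2.57, 2.92 and 4.73 RPKM in Ucp1-KO. All Ucp1-KO cultures were above all WT cultures by a small margin, with culture 15 far above the rest. Its log2 fold change was 0.55 ± 0.21 (SE; unadjusted p = 0.0324, adjusted p = 0.868 by limma; exact permutation p = 0.1, the smallest that 3 against 3 cultures allow) and 0.35 without culture 15. Of its exon bases, 31.0% overlap Gm44732 on the opposite strand.

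Osbpl5, an oxysterol-binding protein that transfers lipids between membranes, showed the opposite order. It had 4.79, 5.31 and 5.25 RPKM in WT and 4.72, 4.02 and 3.41 RPKM in Ucp1-KO. The genotypes did not overlap, although WT culture 10 and Ucp1-KO culture 13 were nearly equal. A log2 fold change of -0.28 ± 0.12 resulted (SE; unadjusted p = 0.0573, adjusted p = 0.868 by limma; exact permutation p = 0.1). Cd81 and Nap1l4, described above, had log2 fold changes of -0.14 ± 0.11 and 0.13 ± 0.09 (SE; adjusted p = 0.886 and 0.877 by limma) and overlapping genotypes.

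The remaining 5 genes of this cluster were under the minimum. Kcnq1ot1, the long non-coding transcript whose paternal expression silences the cluster, had 226 to 477 reads per culture but only 0.162 to 0.381 RPKM because of its length of 83432 bases. The potassium channel gene Kcnq1 had 1 to 21 reads and the transporter Slc22a18 had 3 to 13 reads, the highest of both in WT culture 11. Phlda2 and Ascl2, regulators of placental growth, had 0 to 1 and 0 to 4 reads. The cluster was thus represented mainly by its flanking genes Cd81, Nap1l4 and Osbpl5, with Cdkn1c at a low level.

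In the Snrpn-Ube3a cluster, Ube3a had the least spread among the genes with an unadjusted p under 0.05. Ube3a is a ubiquitin ligase whose imprinting is known from neurons, and it lies at 59228750 to 59311536 on chromosome 7 (plus strand). It had 21.6, 18.4 and 22.9 RPKM in WT and 23.7, 26.3 and 28.03 RPKM in Ucp1-KO. All Ucp1-KO cultures were above all WT cultures, the nearest being WT culture 12 and Ucp1-KO culture 13. A log2 fold change of 0.30 ± 0.11 resulted (SE; unadjusted p = 0.0346, adjusted p = 0.868 by limma; exact permutation p = 0.1), and the other 2 RefSeq transcripts of Ube3a gave 0.30 and 0.34. Without strand, reads in 23.8% of its exon bases cannot be told apart from those of opposite genes.

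Snrpn, a splicing factor component that shares its transcript with Snurf, had 10.7, 14.6 and 14.1 RPKM in WT and 11.2, 15.3 and 15.9 RPKM in Ucp1-KO. Ndn, a growth suppressor that also acts in preadipocytes, had 12.2, 14.4 and 13.1 RPKM in WT and 16.9, 10.99 and 7.75 RPKM in Ucp1-KO. Both overlapped between genotypes, and Ndn was at its highest and its lowest in Ucp1-KO cultures. Their log2 fold changes were 0.10 ± 0.17 and -0.21 ± 0.25 (SE; adjusted p = 0.94 and 0.912 by limma). Of the other genes of this cluster, Magel2 was listed at 0 in all cultures, Mkrn3 had 11 to 21 reads and Peg12 had 3 to 25 reads.

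The H19 transcript varied most of all. H19 is a maternally expressed non-coding RNA that gives rise to a microRNA and neighbours Igf2. It had 3.36, 10.8 and 3.04 RPKM in WT and 9.38, 0.887 and 11.6 RPKM in Ucp1-KO, corresponding to 150, 473 and 141 reads in WT and 396, 40 and 456 reads in Ucp1-KO. WT culture 11 was high and Ucp1-KO culture 14 was low, with a ratio of 13.1 between the highest and the lowest culture. The log2 fold change of 0.08 ± 0.77 (SE; adjusted p = 0.991 by limma) was small against this spread and turned negative in 6 of 12 alternatives. The pooled SD within genotypes was 1.23 on the log2 scale, and only 0.286% of all genes tested were as variable or more so. Macrophage markers were highest in the culture with the lowest H19. The summed stromal markers were highest in WT culture 11 and lowest in Ucp1-KO culture 15, both of which had high H19, although single stromal markers were ordered otherwise. Their part in the variation was not tested.

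Igf2 itself, an insulin-like growth factor expressed from the paternal allele and not among the 39 genes, had 1.17, 1.15 and 1.65 RPKM in WT and 1.88, 1.04 and 1.21 RPKM in Ucp1-KO. It did not show the scatter of H19, the correlation being r = 0.29 (exact permutation p = 0.517, adjusted 0.59) and rho = 0.26 (exact permutation p = 0.658, adjusted 0.752). Without the 2 cultures farthest from the median of H19, r was 0.03.

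Mest was the next most variable and is named here after its values were seen. It encodes a hydrolase-like protein of the endoplasmic reticulum that is known to increase with fat mass expansion. It had 2.63, 10.5 and 4.80 RPKM in WT and 4.23, 6.10 and 3.38 RPKM in Ucp1-KO. As for H19, WT culture 11 was highest among the WT cultures, whereas the Ucp1-KO cultures lay between the WT values. The log2 fold change was -0.19 ± 0.41 (SE; adjusted p = 0.953 by limma), and 2.89% of all genes had a pooled SD of this width or more. Its 3′ end overlaps Copg2, a coat protein gene of the opposite strand, by 38.1% of the Mest exon bases. Copg2 had 16.5 to 24.3 RPKM with equal means of 21.3 RPKM.

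**Figure D4:**
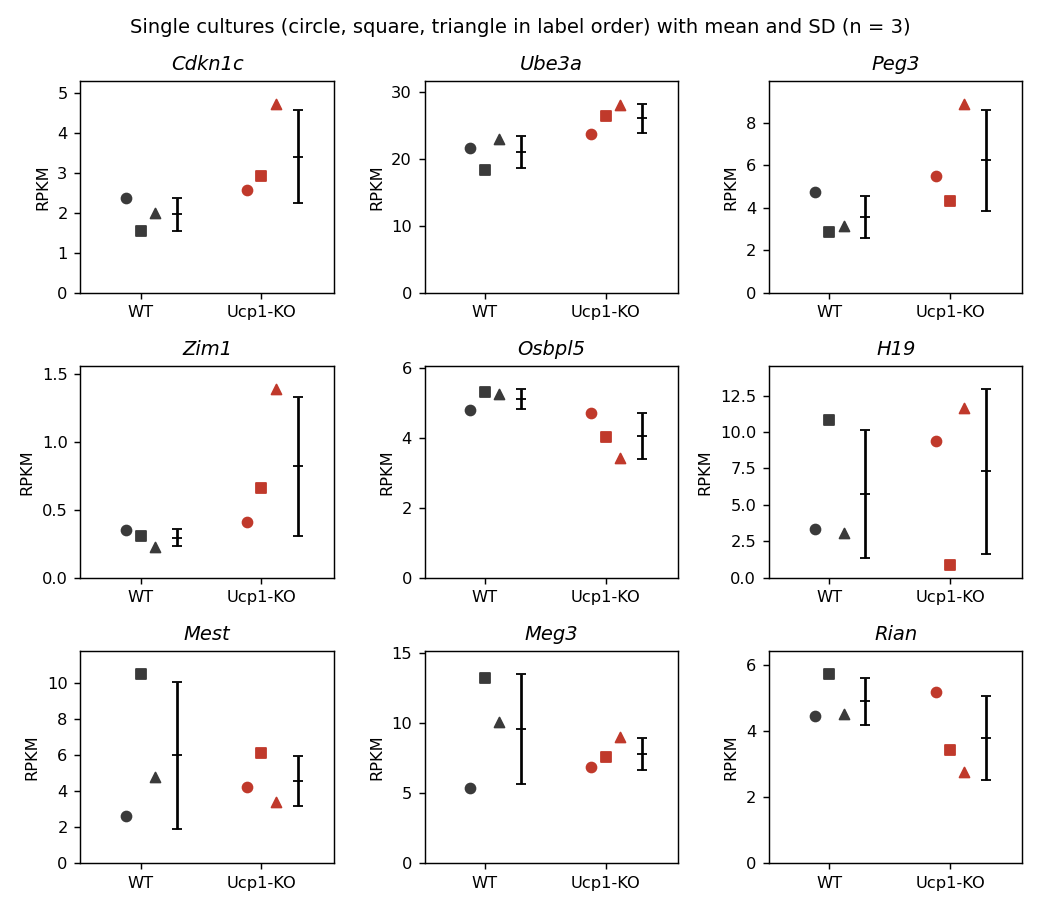
RPKM (vertical axes from 0) of 9 imprinted genes in single WT (black) and Ucp1-KO (red) cultures, with mean and SD (n = 3) beside them. Cdkn1c, Ube3a and Zim1 are higher in all Ucp1-KO cultures and Osbpl5 is lower, whereas H19 ranges from 0.887 to 11.6 RPKM within Ucp1-KO alone.

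The Dlk1-Dio3 cluster of chromosome 12 was represented by its maternally expressed non-coding RNAs. Meg3 had 5.39, 13.2 and 10.1 RPKM in WT and 6.83, 7.55 and 9.03 RPKM in Ucp1-KO. Rian, a host transcript of small nucleolar RNAs, had 4.45, 5.73 and 4.52 RPKM in WT and 5.20, 3.42 and 2.75 RPKM in Ucp1-KO. For Meg3 the WT cultures enclosed all Ucp1-KO cultures, and for Rian the genotypes overlapped because of Ucp1-KO culture 13. The log2 fold changes were -0.19 ± 0.28 and -0.33 ± 0.20 (SE; adjusted p = 0.93 and 0.876 by limma). Although Meg3 and Rian are transcribed in the same direction from 1 domain, they did not follow each other closely over the cultures, with r = 0.20 (exact permutation p = 0.703, adjusted 0.703), rho = 0.31 (exact permutation p = 0.564, adjusted 0.752) and r = -0.30 without the 2 cultures farthest from the median of Meg3.

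Dlk1, the paternally expressed inhibitor of adipocyte differentiation also known as Pref-1, was under the minimum. It had 35, 4 and 12 reads in WT and 33, 19 and 37 reads in Ucp1-KO, that is 0.055 to 0.569 RPKM. WT culture 11 was lowest, and the genotypes overlapped. Mirg, the microRNA host gene of the cluster, was listed only with 3 transcripts of another annotation, at 0.089 to 1.21 RPKM.

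The clusters left included few genes each. In the Peg10 cluster, the retrotransposon-derived gene Peg10 had 6.98 to 10.4 RPKM, the sarcoglycan gene Sgce had 15.5 to 22.2 RPKM and the neuronal scaffold gene Ppp1r9a had 0.577 to 1.23 RPKM. Their log2 fold changes were 0.08 ± 0.16, -0.22 ± 0.13 and 0.15 ± 0.17 (SE; adjusted p = 0.953, 0.876 and 0.91 by limma), and the genotypes of all 3 overlapped. Asb4 of this cluster had only 1 to 13 reads. Ddc, the neighbour of Grb10, had 0 to 1 read.

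Of the further genes, Impact, an inhibitor of the kinase Gcn2, had 15.9 to 24.0 RPKM and the small membrane proteolipid Nnat, neuronatin, 7.14 to 15.7 RPKM. The splicing-related Zrsr1, which lies within an intron of Commd1, had 5.50 to 7.11 RPKM, and the phosphoinositide phosphatase Inpp5f had 4.08 to 6.76 RPKM. The zinc finger gene Plagl1, a regulator of other imprinted genes, had 0.479 to 0.968 RPKM. Airn, the antisense transcript that silences Igf2r on the paternal allele, had 0.296 to 1.05 RPKM from 6 to 20 reads. Log2 fold changes of these 6 genes lay between -0.04 for Airn and 0.16 for Nnat, and the genotypes of all 6 overlapped.

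Variation between cultures differed widely among the imprinted genes. The median pooled SD within genotypes was 0.24 on the log2 scale for the 26 genes against 0.17 for all genes tested, and 18 of 26 (69.2%) lay above the latter. The ratio of the highest to the lowest culture had a median of 1.84 against 1.48. As the genes share the 6 cultures, this is a description without a test. Beyond H19 and Mest, the widest were Grb10, Meg3, Nnat and Peg3, and the narrowest were Nap1l4, Commd1 and Zrsr1. Most imprinted genes were highest in WT culture 11 or in Ucp1-KO culture 15. The former held the highest value of 9 of 26, as it did for 26.9% of all genes, and the latter that of 11 of 26, as it did for 23.4% of all genes.

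WT culture 11 had the highest values of Mest, Meg3, Rian, Grb10, Cd81, Sgce, Osbpl5, Commd1 and Plagl1 of all cultures, while its Peg3, Cdkn1c, Ube3a and Dlk1 values were the lowest of all cultures. In this culture, stromal and endothelial marker sums were highest, at 2157 and 33.4 RPKM. Ucp1-KO culture 15 had the highest Peg3, Zim1, Cdkn1c, Ube3a and Gnas values together with the lowest Rian, Ndn and Osbpl5 values. It had the lowest stromal and mural marker sums, at 837 and 51.6 RPKM. Endothelial markers lay between 2.78 and 15.7 RPKM and mural markers between 71.9 and 229 RPKM in the other cultures. Of 6 tested mural markers, 5 had a lower mean log2 value in Ucp1-KO, 2 of them (Cspg4 and Myh11) with an unadjusted p under 0.05 (3.3% of all genes) and below all WT cultures (5.09%). The part of these cells in the imprinted gene values was not tested.

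**Figure D5:**
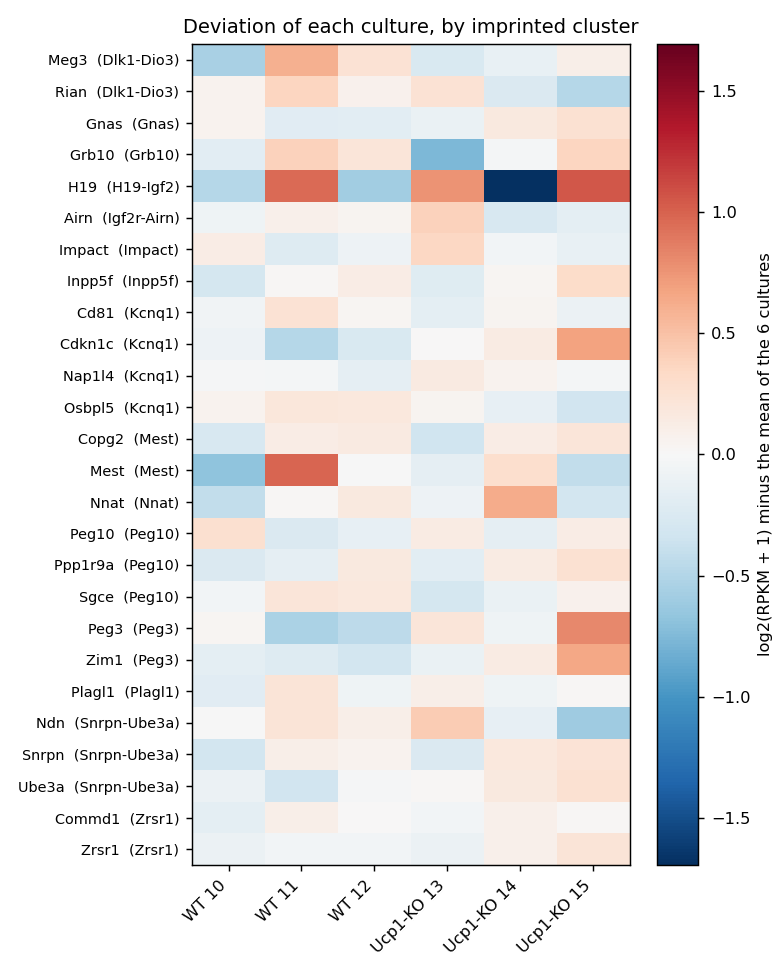
Log2(RPKM + 1) of each tested imprinted gene minus its mean over the 6 cultures (colour scale), by culture (columns) and gene with its cluster (rows). WT culture 11 is above the mean for H19, Mest and Meg3, and Ucp1-KO culture 15 is above it for Peg3, Zim1 and Cdkn1c, whereas H19 in Ucp1-KO culture 14 is the lowest value of the map.

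Proliferation markers summed to 18.1, 13.1 and 10.2 RPKM in WT and 44.3, 19.1 and 13.997 RPKM in Ucp1-KO, and all 6 had a higher mean log2 value in Ucp1-KO. The highest sum belonged to Ucp1-KO culture 13, where Cdkn1c was the lowest of the Ucp1-KO cultures but above all WT cultures. Among WT cultures, the highest sum and the highest Cdkn1c value both belonged to culture 10. Neural and Schwann cell markers, with 11.1 to 13.3 RPKM in WT and 11.9 to 13.7 RPKM in Ucp1-KO, covered like ranges. The 8 muscle markers summed to 8.07 to 10.96 RPKM in WT and 5.91 to 16.2 RPKM in Ucp1-KO, and 3 of them were tested. Tnnt3, which passed the minimum only through Ucp1-KO, had 0.118, 0 and 0.113 RPKM in WT and 1.99, 0.117 and 1.34 RPKM in Ucp1-KO. Myog was also highest in Ucp1-KO cultures 13 and 15, with 1.21 and 0.766 RPKM, whereas Myf5 was listed at 0 in all cultures. Their part in the values of imprinted genes was not tested.

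Transcripts of proteins that place and keep imprints were examined next. Of 24 listed genes of imprint maintenance and DNA methylation, 21 were tested, of which 16 had a positive and 5 a negative log2 fold change with a median of 0.08, beside 49.4% positive over all genes. By limma 0 had an unadjusted p under 0.05, against 5.64% of all genes, and 0 an adjusted one. The maintenance methyltransferase Dnmt1 had 4.40, 3.43 and 3.50 RPKM in WT and 5.91, 4.76 and 3.25 RPKM in Ucp1-KO. Zfp57, the zinc finger protein that recognizes methylated TGCCGC at control regions, had 0.479, 0.910 and 1.29 RPKM in WT and 0.723, 0.305 and 0.429 RPKM in Ucp1-KO. Its cofactor Trim28 had 15.5, 18.5 and 15.8 RPKM in WT and 17.1, 15.8 and 13.5 RPKM in Ucp1-KO. The genotypes overlapped for each. Log2 fold changes were 0.22 ± 0.19 for Dnmt1 and -0.10 ± 0.12 for Trim28 (SE; adjusted p = 0.893 and 0.912 by limma). That of Zfp57, -0.34 ± 0.20, is given without a test because it passed the minimum only through WT. The methyltransferase Dnmt3b, Dppa3 and Tet1 were under the minimum, and Dppa3 was listed at 0 in all WT cultures.

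RefSeq start windows of 300 bases, 250 before and 50 after the start, were listed for 32 of the 39 genes, in 48 windows. The median number of CpG was 13 in these against 7 in all 32851 windows, and 31 of 48 (64.6%) held at least 10 against 43.5%. The letters TGCCGC or their complement GCGGCA, which do not overlap another motif searched, were found in 11 of the 48 windows (22.9%) and in 11.6% of all windows. The 11 include overlapping windows of Mest. TGCCGC itself holds a CpG, so that its share depends on the CpG number, and an excess beyond this was not tested. These are matches of letters within start windows, and control regions elsewhere in a cluster were not examined.

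Further imprinted genes outside the set were examined as a list. Of 43 genes listed, 39 had a RefSeq transcript in the deposited values and 22 were tested, with 7 positive and 15 negative log2 fold changes and a median of -0.11. None had an adjusted p under 0.05, and 4 of 22 had an unadjusted one, against 5.64% of all genes, 2 of them higher and 2 lower in Ucp1-KO. All Ucp1-KO cultures were above all WT cultures for 2 of 22 (5.74% of all genes) and below them for 4 of 22 (5.09%). Dcn, which encodes the matrix proteoglycan decorin of stromal cells, had 55.4, 92.2 and 69.2 RPKM in WT and 35.4, 47.9 and 34.4 RPKM in Ucp1-KO. The genotypes did not overlap, and the log2 fold change was -0.85 ± 0.21 (SE; unadjusted p = 0.00513, adjusted p = 0.868 by limma). The stromal marker sums given above, to which Dcn does not contribute, were also highest in WT culture 11, and their part in this value was not tested.

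Mcts2, a retrogene expressed from the paternal allele, had 20.3, 22.9 and 23.1 RPKM in WT and 25.8, 29.8 and 27.1 RPKM in Ucp1-KO. Pon3, a lactonase gene of the Peg10 cluster, had 26.4, 24.8 and 26.8 RPKM in WT and 29.8, 30.3 and 30.03 RPKM in Ucp1-KO. Peg13, a paternally expressed non-coding RNA, had 5.71, 4.82 and 5.39 RPKM in WT and 4.26, 4.19 and 3.97 RPKM in Ucp1-KO. In each of the 3 the genotypes did not overlap, with Mcts2 and Pon3 higher and Peg13 lower in Ucp1-KO cultures. Log2 fold changes were 0.30 ± 0.10, 0.20 ± 0.08 and -0.29 ± 0.10 (SE; adjusted p = 0.868 by limma for each). Trappc9 and Tssc4 of this list were also below all WT cultures, at -0.12 ± 0.09 and -0.11 ± 0.09 (SE; unadjusted p = 0.216 and 0.244 by limma).

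Igf2r, the receptor that clears Igf2 and the target of Airn, had 6.34, 9.90 and 9.61 RPKM in WT and 6.91, 8.62 and 6.69 RPKM in Ucp1-KO. The genotypes overlapped, and its log2 fold change was -0.18 ± 0.18 (SE; adjusted p = 0.901 by limma), beside 0.02 ± 0.17 for Igf2 (adjusted p = 0.989). Dio3, named after its values were seen, encodes the deiodinase that inactivates thyroid hormone and ends the Dlk1-Dio3 cluster. It had 4.52, 6.09 and 4.92 RPKM in WT and 5.83, 3.17 and 1.46 RPKM in Ucp1-KO. The order of the Ucp1-KO cultures was that of Rian, but also that of Ndn and Osbpl5 in other clusters. For Meg3 of the same cluster it was the reverse.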

How the data were processed

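RNA had been sequenced as single reads of 50 bases from 6 cultures. The authors mapped these to mouse genome build 38 with Genomatix software, counted uniquely mapped ones per known transcript and deposited RPKM. Their own comparison of genotypes used a count model and is not part of the values used here. CASAVA and bcl2fastq are named in the submitters' processing notes. Each of the 6 columns bears the name of a culture, and groups came from the labels.

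RefSeq transcripts (28890 rows) were used, and the most abundant one stood for each gene (for 16 of 38 genes, out of more than 1). Rows with a mean of at least 0.5 RPKM (16865) entered limma (version 3.58.1, R 4.3.3) as log2(RPKM + 1), with moderated variances that follow the mean level (trend) and Benjamini-Hochberg adjustment over all rows and a threshold of 0.05. Whole reads were recovered from the deposited RPKM with Ensembl transcript lengths (GENCODE M21), 93.2% to 93.5% of whose values came out whole, and then with solved RefSeq lengths, at a tolerance of 0.02 reads. Read recovery and the comparison were tested on simulated data. For the comparison, 168 of 200 transcripts changed 3-fold were called, and 6 others. The simulated noise was independent for each transcript, and in the cultures themselves Ucp1 was not called, so that this share does not carry over to them. Exact permutation tests were two-sided. The number of cultures and, for genes of few reads, the depth limit the precision.

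The 39 genes, the other lists and the tests were chosen with earlier results of these data known. Full values are given for genes with an unadjusted p under 0.05, genes without overlap of genotypes, the 5 most abundant genes and the tested genes of the H19-Igf2, Dlk1-Dio3, Peg3, Kcnq1 and Snrpn-Ube3a clusters. Of the lists of other imprinted and imprint maintenance genes they are given for those with an unadjusted p under 0.05 and for Igf2, Igf2r, Dcn, Zfp57, Dnmt1 and Trim28. Alternatives were 0.1 RPKM added, no minimum abundance, 1 transcript per gene, all annotations, median-of-ratios scaling, limma-voom on reads, leaving out each culture, other RefSeq rows of a gene, and for neighbours RPKM or values centred by genotype. The first exons of Gnas, the minimum in each genotype for genotypes without overlap, and counts without Zim1 or Gnas, were added after values were seen. Coordinates are from GENCODE M21 and sequences from RefSeq, both GRCm38.p6. Other calculations were made with scipy 1.17.1, pandas 2.3.3 and numpy 2.4.6 under Python 3.11.15, and plots with matplotlib 3.10.9.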

Additional observations from a re-analysis of the deposited data

How the results depend on the processing

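No paired analysis was possible because the culture numbers, 10 to 12 for WT and 13 to 15 for Ucp1-KO, are not shared between the genotypes. No imprinted gene of the set, and no transcript at all, had an adjusted p under 0.05 in any of the 12 alternatives to the whole comparison. The number with an unadjusted p under 0.05 changed from 3 to 5 with limma-voom on reads and to 2 with no minimum abundance (5.41% of 37 genes, 5.75% of all genes) or median-of-ratios scaling (7.69%, 6.01% of all genes). With single cultures left out it was 0 without WT culture 11, 1 without WT culture 12 or Ucp1-KO culture 15, and 7 (6 without Zim1) without Ucp1-KO culture 13, beside 2.03%, 2.77%, 5.34% and 9.24% of all genes. The number with a higher value in Ucp1-KO was 22 of 37 (59.5%) with no minimum abundance and, with a culture left out, 10 (without WT culture 10) to 18 of 26. That without overlap was 4 to 10 with a culture left out. It was 8 (30.8%) without WT culture 10 and 10 (38.5%) without Ucp1-KO culture 13, where 32.3% and 27.7% of all genes did not overlap. Over all 16865 transcripts, the number with an unadjusted p under 0.05 was 935, and 317 to 1754 with a culture left out. With all annotations it was 5193 over many more rows, while the share of genes was 5.46% against 5.64%. For other imprinted genes, the number with an unadjusted p under 0.05 was 1 of 22 without Ucp1-KO culture 14 to 6 of 22 without Ucp1-KO culture 13. The share of all genes was 3.72% and 9.24% there. The number of other imprinted genes with a higher value in Ucp1-KO was 16 of 37 with no minimum abundance and 6 to 11 of 22 with a culture left out. For imprint maintenance genes, 0 to 2 had an unadjusted p under 0.05 with a culture left out, the 2 without WT culture 10, where 10.6% of all genes did.

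Of the 26 genes, 12 kept the direction of the log2 fold change in all alternatives, namely Rian, Peg3, Zim1, Cdkn1c, Cd81, Nap1l4, Osbpl5, Ube3a, Sgce, Ppp1r9a, Gnas and Zrsr1. The size was less stable, with -0.53 to -0.17 for Rian, -0.21 to -0.054 for Cd81, 0.054 to 0.28 for Ppp1r9a, 0.053 to 0.21 for Zrsr1, 0.13 to 0.32 for Gnas, 0.080 to 0.17 for Nap1l4, -0.31 to -0.12 for Sgce, 0.057 to 0.41 for Dnmt1, -0.50 to -0.19 for Zfp57, -0.17 to -0.0099 for Trim28 and -0.36 to -0.078 for Igf2r when single cultures were left out. H19 changed sign to -0.038 with 0.1 RPKM added and -0.11 with limma-voom, and Copg2 to 0.0067 with median-of-ratios scaling. With single cultures left out, ranges that included 0 were -0.42 to 0.95 for H19, -0.52 to 0.059 for Meg3, -0.58 to 0.25 for Mest, -0.14 to 0.16 for Copg2, -0.054 to 0.15 for Plagl1, -0.54 to 0.025 for Grb10, -0.47 to 0.041 for Ndn, -0.031 to 0.25 for Snrpn, -0.025 to 0.23 for Peg10, -0.12 to 0.35 for Nnat, -0.024 to 0.21 for Impact, -0.24 to 0.088 for Airn, -0.035 to 0.092 for Commd1, -0.037 to 0.22 for Inpp5f and -0.13 to 0.12 for Igf2. The cause was not tested.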
